A study of Mus musculus with 6 samples.

Results

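The MHC class I genes and the genes of peptide transport were described in splenic CD4+ T cells profiled by RNA-seq. The 10 genes were chosen by symbol in the deposited tables, which list 54532 genes: the heavy chain genes H2-K1, H2-D1, H2-Q7, H2-T22 and H2-T23, the light chain gene B2m, the transporter genes Tap1 and Tap2, the loading factor gene Tapbp and the regulator gene Nlrc5. All 10 were found and all 10 passed the filter on low counts. In 1 group, wild-type C57BL/6J mice drank dextran sulfate sodium (DSS), which injures the colon and causes colitis, and received Akkermansia muciniphila, a mucin-degrading gut bacterium, every day (3 libraries). In the other, wild-type C57BL/6J mice with the same DSS colitis received phosphate-buffered saline (PBS) every day (3 libraries). No mice without colitis were analysed here, and the sources used here state neither age, sex nor the method of cell isolation. The design text calls the libraries of a group biological replicates. The sample descriptions name CD4 for the libraries numbered 1, CD5 for those numbered 2 and CD6 for those numbered 3, whereas the cell type entry of all 6 names CD4.

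Class I molecules carry peptides from inside the cell to its surface, where CD8 T cells read them through the T cell receptor and natural killer (NK) cells sense them through inhibitory receptors. Each consists of a heavy chain from the H2 complex, the invariant light chain beta-2 microglobulin and a peptide. The peptides are cut by the proteasome, carried into the endoplasmic reticulum by the TAP transporter and loaded with the help of tapasin. Nearly all nucleated cells make class I, lymphocytes at high levels, and interferon raises the transcription of the heavy chain, light chain, transporter and immunoproteasome genes.

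Depth was 15032257 to 16677923 counts per library. In CPM (counts scaled to library size, with factors from the trimmed mean of M values), 12 markers of CD4+ T cells summed to 6587 to 6909 in Akkermansia libraries and 6472 to 6642 in PBS libraries, and Cd4 averaged 884 ± 29.6 in Akkermansia libraries and 688 ± 31.9 in PBS libraries (SD, n = 3 each). Of the 12 CD4+ T cell markers, 4 rose and 1 fell (edgeR, adjusted p below 0.05). Over all genes tested, 7.32% rose, 8.28% fell and 30.1% had an unadjusted p below 0.05. Transcripts of other cell types were present as well, and several of their lists differed between the groups. All 15 of 15 B cell markers rose, with summed levels of 1328 to 1523 CPM in Akkermansia libraries and 914 to 943 CPM in PBS libraries, and none was at 0. The 2 CD8 T cell markers summed to 61.3 to 93.4 CPM in Akkermansia libraries and 19.1 to 20.2 CPM in PBS libraries (2 of 2 rose). Of 12 NK cell markers 6 rose, with sums of 104 to 121 CPM in Akkermansia libraries and 68.7 to 88.1 CPM in PBS libraries. Neutrophil markers summed to 93.0 to 198 CPM in Akkermansia libraries and 22.5 to 69.8 CPM in PBS libraries (2 of 9 tested rose), and monocyte and macrophage markers to 490.5 to 530.2 CPM in Akkermansia libraries and 403 to 486 CPM in PBS libraries (1 of 12 rose). Dendritic cell markers summed to 132 to 153 CPM in Akkermansia libraries and 76.3 to 141 CPM in PBS libraries (3 of 9 tested rose). Plasma cell markers summed to 707 to 868 CPM in Akkermansia libraries and 321 to 493 CPM in PBS libraries, but 0 of 9 rose (edgeR) and 3 fell, Prdm1, Xbp1 and Irf4, and the sum was led by Igha, which did not pass (adjusted p = 0.0568). At an unadjusted p below 0.05 the plasma cell count, in either direction, was 5 of 9. Erythroid markers summed to 254 to 484 CPM in Akkermansia libraries and 481 to 1068 CPM in PBS libraries (1 of 10 fell). Platelet markers summed to 8.02 to 17.4 CPM in Akkermansia libraries and 14.9 to 20.5 CPM in PBS libraries (1 of 4 tested fell). The part of these cells in the class I values was not tested.

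The promoters of the class I heavy chain genes are shown first because H2-Q7, which rose, and H2-K1 and H2-D1, which did not pass the test, share a nearly common control region. RefSeq windows (GRCm38.p6, 250 bases before to 50 after each start) were matched by symbol for 8 of the 10 genes, all but Tap2 and Nlrc5. The capitals mark 4 kinds of letters, on either strand. They are GGGGATT (part of the kappa B site of enhancer A), GAANNGAAA or GAAANNGAA (cores of an interferon-stimulated response element, in which N is any base, so that TTTCACTTC is the first of them on the opposite strand), TGACG (part of a CREB site) and CCAAT (the Y box, ATTGG on the opposite strand). H2-Q6, the gene whose transcript shares most with that of H2-Q7, and H2-T22 and B2m are given beside them. In GENCODE M21 (GRCm38), 8 of the 10 genes are protein-coding genes of chromosome 17, among them H2-Q7 (chr17:35439155-35443773, plus strand) and Tap2 (chr17:34203527-34216321, plus strand). B2m is on chromosome 2 and Nlrc5 on chromosome 8, both also protein-coding. The counts themselves were made on another build (GRCm39), and RefSeq and GENCODE place some starts differently.
H2-K1, chr17:34000334-34000463, minus strand: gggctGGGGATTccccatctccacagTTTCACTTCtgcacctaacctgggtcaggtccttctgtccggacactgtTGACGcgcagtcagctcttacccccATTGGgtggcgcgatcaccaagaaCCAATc
H2-D1, chr17:35262918-35263050, plus strand: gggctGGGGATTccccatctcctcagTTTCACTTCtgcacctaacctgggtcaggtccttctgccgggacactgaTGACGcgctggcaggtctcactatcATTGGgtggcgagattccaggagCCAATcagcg
H2-Q7, chr17:35439017-35439148, plus strand: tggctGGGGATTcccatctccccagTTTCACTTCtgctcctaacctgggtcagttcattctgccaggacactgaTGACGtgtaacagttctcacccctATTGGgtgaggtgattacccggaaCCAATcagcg
H2-Q6, chr17:35424672-35424804, plus strand: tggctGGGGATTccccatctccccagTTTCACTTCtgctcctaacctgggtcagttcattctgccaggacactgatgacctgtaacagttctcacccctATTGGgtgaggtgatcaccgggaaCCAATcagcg
H2-T22, chr17:36042755-36042937, minus strand: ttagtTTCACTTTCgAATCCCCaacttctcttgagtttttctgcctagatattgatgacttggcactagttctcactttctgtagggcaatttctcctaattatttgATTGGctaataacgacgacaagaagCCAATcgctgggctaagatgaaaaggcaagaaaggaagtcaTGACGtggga
B2m, chr2:122147543-122147643, plus strand: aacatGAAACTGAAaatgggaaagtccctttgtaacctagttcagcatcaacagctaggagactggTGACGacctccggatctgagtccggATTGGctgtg

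In these stretches the H2-K1, H2-D1 and H2-Q7 promoters carried the 4 kinds of letters in the same order. The stretches were cut from GGGGATT to CCAAT, which sets their first and last kinds. The order was also the same in the full windows of these genes. Identity over the aligned stretches was 85.1% between H2-K1 and H2-D1, 80.6% between H2-K1 and H2-Q7 and 83.6% between H2-D1 and H2-Q7. H2-Q7 and H2-Q6 were 97% identical, and the TGACG letters stood in H2-Q7 and not in the H2-Q6 stretch. H2-T22 was 46.6% to 48.7% identical to the 3 other heavy chain promoters that belong to member genes, and B2m 45.1% to 49%. The H2-T22 stretch was cut at other letters and is longer, at 183 bases against 130 to 133. Gaps counted as differences, so its values cannot be set beside those of the other heavy chain pairs. GGGGATT occurred in 4 of the 8 windows matched (H2-K1, H2-D1, H2-Q7 and H2-T22) and in 3.1% of all 32851 windows of the same length. GAAANNGAA occurred in 3 of 8 (B2m, H2-T22 and H2-T23) and in 8.56% of all windows. GAANNGAAA, a form added after the promoters were read, occurred in 3 of 8 (H2-K1, H2-D1 and H2-Q7) and in 7.52% of all windows. The GAAANGAAA form occurred in none of the 8 and in 3.17% of all windows. CCAAT was in all 8 (37.4% of all windows) and TGACG in 6 of 8 (20.8%). GGGGATT and GAANNGAAA stood together in H2-K1, H2-D1 and H2-Q7 and in 0.274% of all windows. This pair, too, was added after the promoters were read. The 3 promoters were 80.6% to 85.1% identical, so their matches are not independent of each other. These matches are descriptions of letters and not of bound sites.

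The 10 genes differed widely in level, with the light chain and the classical heavy chains at the top. On the per-length scale of FPKM (the deposited value scaled for gene length and library size), B2m averaged 2112 ± 115 in Akkermansia libraries and 1990 ± 407 in PBS libraries, and H2-K1, a classical heavy chain gene, averaged 1675 ± 27.5 in Akkermansia libraries and 1615 ± 128 in PBS libraries (SD, n = 3 each). H2-D1, the other classical heavy chain gene, averaged 1032 ± 7.75 FPKM in Akkermansia libraries and 949 ± 48.8 FPKM in PBS libraries. The order of the mean levels over all 6 libraries was B2m (2051 FPKM), H2-K1 (1645), H2-D1 (991), H2-Q7 (274), H2-T23 (132), Tapbp (97.9), H2-T22 (86.7), Tap1 (85.3), Nlrc5 (73.1) and Tap2 (57.7). The ranges of B2m and H2-K1 over the 6 libraries overlapped, as did those of neighbours from H2-T23 to Nlrc5. H2-K1 and H2-D1, H2-D1 and H2-Q7, H2-Q7 and H2-T23, and Nlrc5 and Tap2 did not overlap. The 10 genes together took 1.24% to 1.27% of all counts in Akkermansia libraries and 1.04% to 1.25% in PBS libraries.

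Between the groups, 2 of the 10 genes rose in Akkermansia libraries, H2-Q7 and Tap2, and none fell (edgeR quasi-likelihood test, adjusted p below 0.05 over all genes tested). With any 1 of the Akkermansia libraries left out the count was 0, without PBS 2 it was 3, and without PBS 1 or PBS 3 it was 2, with 1 gene (H2-T22) called lower without PBS 3. Over all genes tested, 647, 519 and 535 were called higher without Akkermansia 1, 2 or 3, against 1108 with none left out. Those called lower were 755, 623 and 638, against 1253. Without PBS 1, 2 or 3, 679, 1147 and 1287 were higher and 794, 1413 and 1243 lower. Of the 10 genes, DESeq2 and limma-voom also called 2 higher and 0 lower. Over all 15138 genes tested, 7.32% were called higher, 8.28% lower and 15.6% in either direction. Among the 2401 tested genes averaging at least 100 CPM, as all 10 genes did, 27.7% were called in either direction. At an unadjusted p below 0.05 the count was 3 of 10, against 30.1% of all genes tested. The median log2 fold change was 0.09 over the 10 genes and -0.01 over all genes tested. All 3 Akkermansia values stood above all 3 PBS values in 3 genes, H2-D1, H2-Q7 and Tap2, and below them in none. Over all genes tested, the groups did not overlap in 34.9%, and all Akkermansia values were above in 17.1% and below in 17.8%. In 6 of the 10 genes all 3 Akkermansia values lay inside the PBS range, as they did in 16.8% of all genes tested. In bulk RNA, fewer cells of a type and less RNA per cell cannot be told apart.

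**Figure D1:**
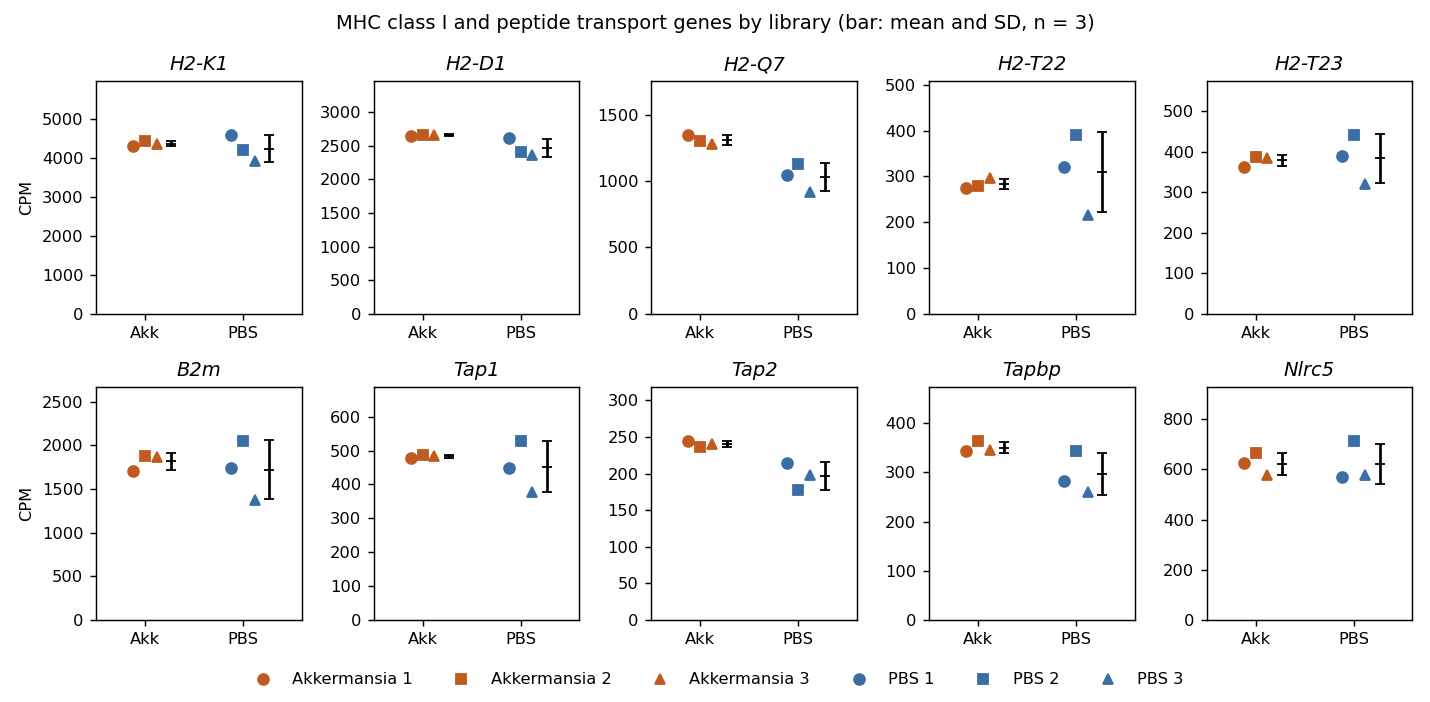
Expression of the 10 genes in each library (y axis: CPM, from 0), with Akkermansia libraries (orange) left of PBS libraries (blue), symbols for the library number and black bars for mean and SD (n = 3). H2-Q7 and Tap2 show 3 Akkermansia points above all PBS points, and the PBS points of H2-T22, B2m, Tap1 and H2-T23 spread on both sides of the Akkermansia points.

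H2-Q7 encodes a Qa-2 heavy chain, which is non-classical, and its values need not be those of all Qa-2 transcripts. H2-Q7 had 1350, 1300.2 and 1277 CPM in Akkermansia libraries 1 to 3, against 1043, 1131 and 921 CPM in PBS libraries 1 to 3. Every Akkermansia library was above every PBS library, and the lowest was PBS 3. The fold change was 1.27 (95% interval 1.12 to 1.43), a log2 fold change of 0.34 ± 0.08 (SE, adjusted p = 0.0136). The call was lost without Akkermansia 1, Akkermansia 2 or Akkermansia 3 (adjusted p = 0.0551, 0.0567 and 0.0514) with the log2 fold change between 0.33 and 0.36, and kept without each PBS library. It was also lost on log2(FPKM + 1), where the adjusted p was 0.0536.

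Reads of H2-Q7 can be shared with its relatives. Of the 100-base windows of its longest coding transcript in GENCODE M21, 16.4% occurred unchanged in transcripts of other genes, most often H2-Q6 (11.7%). With 150-base windows the share was 9.68%. Read length and the handling of such reads are not stated in the sources used here, so part of the H2-Q7 count may belong to H2-Q6 or the reverse. H2-Q6 had 1052, 968 and 1022 CPM in Akkermansia libraries and 1114, 1022 and 808 CPM in PBS libraries and did not pass (log2 fold change 0.05 ± 0.10, SE, adjusted p = 0.806). H2-Q4, named after its values were seen, had 708, 717 and 726 CPM in Akkermansia libraries and 959, 822 and 763 CPM in PBS libraries, all lower in Akkermansia libraries, and did not pass either (-0.24 ± 0.08, SE, adjusted p = 0.0706). Summed over H2-Q4, H2-Q5, H2-Q6, H2-Q7 and H2-Q10, a quantity that does not depend on how reads are split among these genes, the CPM came to 3279 ± 71.5 in Akkermansia libraries and 3068 ± 352 in PBS libraries (SD, n = 3 each). The 2 groups overlapped in that sum, with single libraries from 3216 to 3357 CPM in Akkermansia libraries and from 2672 to 3348 CPM in PBS libraries. The per-length ratio of H2-Q7 to H2-Q6 was 0.628, 0.656 and 0.611 in Akkermansia libraries and 0.458, 0.541 and 0.557 in PBS libraries, without overlap.

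Neither classical heavy chain gene passed the test. H2-K1 had 4300.1, 4439 and 4354 CPM in Akkermansia libraries, against 4591, 4212 and 3905 CPM in PBS libraries. The Akkermansia values lay inside the PBS range, and the fold change was 1.03 (95% interval 0.916 to 1.16, adjusted p = 0.762). H2-D1 had 2647, 2667 and 2666 CPM in Akkermansia libraries, against 2615, 2416 and 2358 CPM in PBS libraries. The groups did not overlap, but the step from PBS 1 to the lowest Akkermansia library was small, and the fold change of 1.08 (0.970 to 1.20, adjusted p = 0.329) did not pass. The SD of H2-D1 was 11.2 CPM in Akkermansia libraries and 135 CPM in PBS libraries. None of the 100-base windows of H2-K1 and 4.64% of those of H2-D1 occurred in transcripts of other genes.

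H2-T22 and H2-T23 are non-classical. In the mouse the H2-T22 product is a ligand of some gamma-delta T cell receptors, and H2-T23 encodes Qa-1, which shows leader peptides of class I chains to NKG2 receptors of NK cells. H2-T22 had 276, 279 and 297 CPM in Akkermansia libraries, against 320.03, 391 and 216 CPM in PBS libraries. PBS 2 was the highest and PBS 3 the lowest of the 6 libraries, and the fold change was 0.918 (95% interval 0.626 to 1.35, adjusted p = 0.765). Without PBS 3, the gene was called lower (log2 fold change -0.33, adjusted p = 0.0232), and without PBS 2 the sign turned (0.08, adjusted p = 0.798). H2-T23 had 362, 387 and 385 CPM in Akkermansia libraries, against 389, 442 and 320.1 CPM in PBS libraries, and its fold change was 0.986 (0.845 to 1.15, adjusted p = 0.918). Again PBS 2 was the highest library and PBS 3 the lowest. Of the 100-base windows, 14.2% of those of H2-T22, most often in common with H2-T10, and 7.28% of those of H2-T23 occurred in transcripts of other genes.

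Across the 5 heavy chain genes among the 10, the summed level was 8995 ± 70.04 CPM in Akkermansia libraries and 8423 ± 636 CPM in PBS libraries (SD, n = 3 each). By library it was 8935, 9072 and 8978 CPM in Akkermansia libraries and 8958, 8591 and 7719 CPM in PBS libraries. PBS 1 lay among the Akkermansia libraries, so the groups overlapped. B2m, which pairs with every one of these chains, had 1705, 1877 and 1861 CPM in Akkermansia libraries, against 1741, 2050.1 and 1369 CPM in PBS libraries. PBS 2 was above and PBS 3 below all Akkermansia libraries, and the fold change was 1.05 (95% interval 0.864 to 1.29, adjusted p = 0.742). The per-length ratio of the 2 classical heavy chain genes to B2m was 1.35, 1.25 and 1.25 in Akkermansia libraries and 1.37, 1.07 and 1.51 in PBS libraries.

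The TAP transporter is a heterodimer of the Tap1 and Tap2 products. Tap2 had 245, 236 and 240.5 CPM in Akkermansia libraries, against 215, 178 and 197 CPM in PBS libraries. All Akkermansia libraries were above all PBS libraries. The fold change was 1.22 (95% interval 1.09 to 1.37), a log2 fold change of 0.29 ± 0.08 (SE, adjusted p = 0.0223), and the call was lost without Akkermansia 1, Akkermansia 2 or Akkermansia 3 (adjusted p = 0.0778, 0.0735 and 0.0814) with the log2 fold change between 0.28 and 0.30, and kept without each PBS library. Tap1 had 479, 488 and 484 CPM in Akkermansia libraries, against 449.96, 529 and 377 CPM in PBS libraries. The Akkermansia values lay inside the PBS range, and the fold change was 1.07 (0.915 to 1.25, adjusted p = 0.579). The difference between the fold changes of Tap1 and Tap2 was not tested. The per-length ratio of Tap2 to Tap1 was 0.740, 0.701 and 0.720 in Akkermansia libraries and 0.692, 0.486 and 0.758 in PBS libraries, where PBS 2 was the lowest and PBS 3 the highest. No 100-base window of either transporter gene occurred in transcripts of other genes.

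Tapbp encodes tapasin, which bridges the empty heavy chain to the transporter. It had 342, 364 and 345 CPM in Akkermansia libraries, against 283, 344 and 261 CPM in PBS libraries. PBS 2 lay between Akkermansia 1 and Akkermansia 3, so the groups overlapped. The fold change was 1.18 (95% interval 1.03 to 1.36), and the adjusted p was 0.0968. Tapbp was called higher without PBS 2 (log2 fold change 0.37, adjusted p = 0.00351) and with no filter on low counts (0.26, adjusted p = 0.00696), and not without PBS 1 (0.20, adjusted p = 0.292) or PBS 3 (0.16, adjusted p = 0.220). Nlrc5, the transactivator that binds class I promoters, had 624, 665 and 579 CPM in Akkermansia libraries, against 572, 714 and 579 CPM in PBS libraries. The Akkermansia values lay inside the PBS range, and the fold change was 1.00 (0.872 to 1.15, adjusted p = 0.991).

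**Figure D2:**
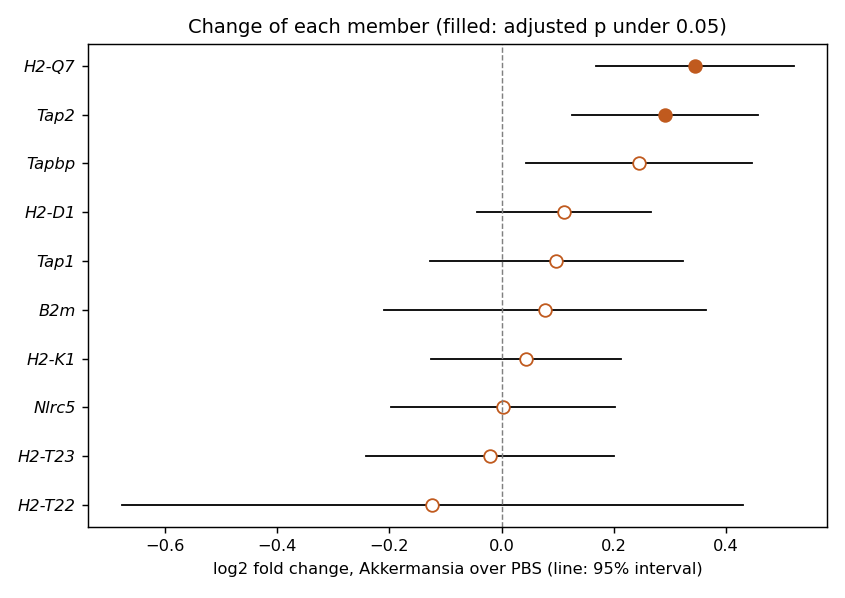
Log2 fold change of each gene, Akkermansia over PBS (x axis), with its 95% interval as a line and filled points for adjusted p below 0.05. H2-Q7 (0.34) and Tap2 (0.29) are the filled points, and H2-T22, at -0.12, has the widest interval.

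The replicates of the groups differed in spread. The SD of CPM was larger in PBS libraries than in Akkermansia libraries in 10 of the 10 genes, against 62.7% of all genes tested. The coefficient of variation was 0.423% to 6.89% in Akkermansia libraries and 5.49% to 28.4% in PBS libraries, with H2-T22 the most variable in PBS. In 6 of the 10 genes (H2-Q7, H2-T22, H2-T23, B2m, Tap1 and Tapbp) PBS 2 was above PBS 1 and PBS 1 above PBS 3, an order found in 18.6% of all genes tested. H2-K1, H2-D1, Tap2 and Nlrc5 had other orders, and in Tap2 PBS 2 was the lowest. The same order was found in 28 of 30 genes induced by interferon and in 6 of 7 immunoproteasome and activator genes. Psmb8 and Psmb9 stand in both lists, so the counts are not separate. The summed level of the 30 interferon-induced genes was 2875, 3391 and 3191 CPM in Akkermansia libraries and 3204, 4989 and 2215 CPM in PBS libraries. Thus the PBS libraries stood on both sides of the Akkermansia libraries in interferon-induced genes. The part of this spread in the class I values was not tested, apart from the fits without PBS 2 or PBS 3 given above.

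**Figure D3:**
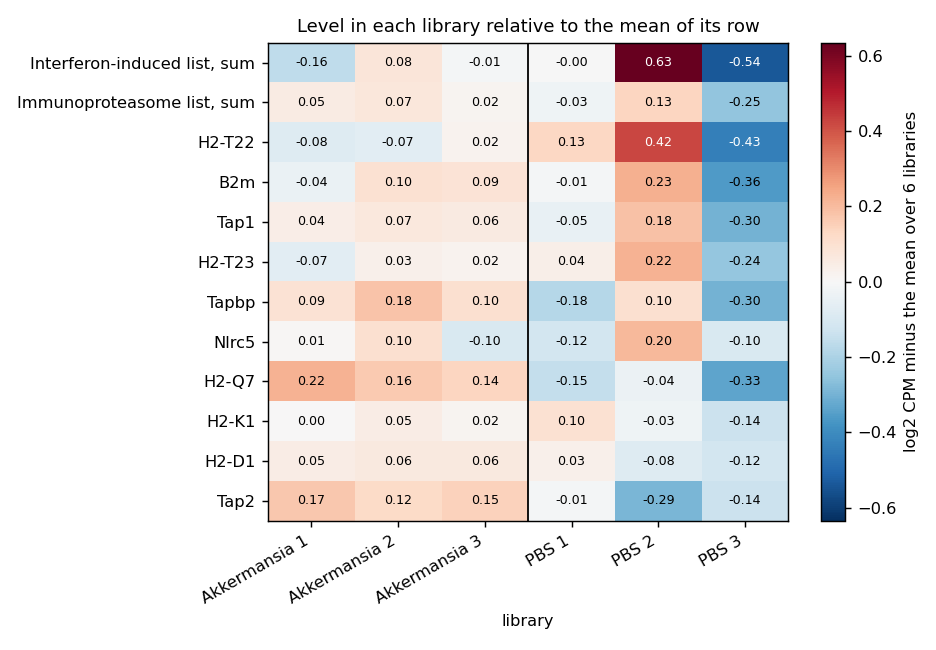
Level of the interferon-induced list, the immunoproteasome list and the 10 genes in each library (columns), as log2 CPM minus the mean over 6 libraries of the same row (colour and printed number). The PBS 2 column is positive and the PBS 3 column negative from the interferon-induced list (0.63 and -0.54) to Nlrc5. H2-Q7 and Tap2 are negative in all 3 PBS libraries.

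Of the interferon-induced genes, 0 of 30 passed the test in either direction (edgeR), and 1 of 30, Irf1 (named after its value was seen, adjusted p = 0.122), had an unadjusted p below 0.05. DESeq2, limma-voom and limma on log2 FPKM called 0 as well, here and in the proteasome and peptidase lists. The median log2 fold change of that list was -0.15. Over all genes tested, 15.6% were called in either direction and 30.1% had an unadjusted p below 0.05 (edgeR). Without PBS 2, 5 of the 30 interferon-induced genes were called higher, against 1147 of all 15631 genes tested. Without PBS 3, 2 of the 30 were called lower, against 1243 of 15496. Bst2, the most abundant of the 30 per length, had 69.1, 92.2 and 89.7 CPM in Akkermansia libraries and 76.0, 102 and 50.9 CPM in PBS libraries. Among 7 immunoproteasome and proteasome activator genes, 0 passed (edgeR), 0 had an unadjusted p below 0.05, and the median log2 fold change was 0.07. Psme1, a subunit of the proteasome activator and the most abundant per length, averaged 198 ± 7.69 CPM in Akkermansia libraries and 202 ± 28.6 CPM in PBS libraries (SD, n = 3 each). Without PBS 2, 2 of the 7 were called higher. The 3 catalytic subunits of the constitutive proteasome and 7 cytosolic peptidases had no call either (edgeR), with 0 and 2 at an unadjusted p below 0.05. Psmb5, the most abundant constitutive subunit per length, averaged 34.9 ± 4.52 CPM in Akkermansia libraries and 31.2 ± 0.343 CPM in PBS libraries (SD, n = 3 each, adjusted p = 0.330). Lnpep, an aminopeptidase, averaged 550 ± 20.7 CPM in Akkermansia libraries and 484 ± 10.6 CPM in PBS libraries (SD, n = 3 each, adjusted p = 0.0776), and was called higher with no filter on low counts (log2 fold change 0.20, adjusted p = 0.0476).

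Peptide loading and folding partners in the endoplasmic reticulum held calls in both directions, 4 higher and 1 lower of 11 tested. Their median log2 fold change was 0.15. Of all genes tested, 7.32% were called higher and 8.28% lower. Among tested genes averaging at least 100 CPM, as most of the 11 did, 27.7% were called in either direction. In this list, 1 or 2 were called higher with any 1 of the Akkermansia libraries or PBS 1 left out. On both FPKM scales, 2 were called higher. Tapbpl encodes TAPBPR, a tapasin relative that edits the peptides of class I outside the loading complex. It had 88.3, 86.8 and 82.3 CPM in Akkermansia libraries, against 70.8, 66.7 and 63.8 CPM in PBS libraries, without overlap. It rose 1.28-fold (log2 0.35 ± 0.07, SE, adjusted p = 0.0062), and the call was kept in all 15 alternative fits. Canx, the lectin chaperone calnexin, averaged 239 ± 9.64 CPM in Akkermansia libraries and 192 ± 18.8 CPM in PBS libraries (SD, n = 3 each), a rise of 1.24-fold (adjusted p = 0.0188). Bcap31, a membrane export factor, rose 1.20-fold (adjusted p = 0.031), and Pdia3, the disulfide isomerase of the loading complex, rose 1.17-fold (adjusted p = 0.0327). The naming of Pdia3 followed its value. Canx was not called without Akkermansia 2, Akkermansia 3 or PBS 1 (adjusted p up to 0.0886), nor Bcap31 with any 1 library other than PBS 2 left out (adjusted p up to 0.124), and neither was called on the FPKM scales. Calr, which encodes the chaperone calreticulin, was also chosen after its values and had 487 ± 22.7 CPM in Akkermansia libraries and 462 ± 9.31 CPM in PBS libraries (SD, n = 3 each, adjusted p = 0.487).

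Hspa5, the general chaperone BiP, went the other way within that list. It had 837, 940 and 967 CPM in Akkermansia libraries, against 1334, 1217 and 1359 CPM in PBS libraries, without overlap. It fell by 0.51 ± 0.08 on the log2 scale (SE, adjusted p = 0.00113).

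Among 14 tested class I and class I-like heavy chain genes other than the 10, 3 rose and none fell, whereas DESeq2 called 1 lower. By edgeR, 7.32% of all genes tested rose and 8.28% fell. With any 1 of the Akkermansia libraries, PBS 1 or PBS 2 left out, 1 was called higher, and without PBS 3, 2 were called lower. H2-Q10, which encodes a secreted class I chain known from mouse liver, had 54.0, 45.2 and 56.04 CPM in Akkermansia libraries, against 37.9, 24.4 and 21.2 CPM in PBS libraries. Its rise was 1.86-fold (log2 0.89 ± 0.22, SE, adjusted p = 0.0367) and was not called with any 1 of the Akkermansia libraries or PBS 2 left out (adjusted p up to 0.133). Fcgrt, the heavy chain of the neonatal Fc receptor, averaged 19.6 ± 4.63 CPM in Akkermansia libraries and 13.3 ± 0.613 CPM in PBS libraries (SD, n = 3 each), a rise of 1.48-fold (adjusted p = 0.0304). H2-K2, a relative of H2-K1 with a pseudogene transcript in GENCODE M21, rose 1.29-fold (adjusted p = 0.0211). Fcgrt had 16.8, 24.96 and 17.2 CPM in Akkermansia libraries 1 to 3, and without Akkermansia 2, the highest, its log2 fold change was 0.35 (adjusted p = 0.174), against 0.56 with it. Fcgrt was called in 8 of 15 alternative fits and H2-K2 in 12 of 15. H2-Q8, H2-Q9 and H2-T9 of the same list matched no symbol among the genes listed, so they were not analysed here.

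Regulators of class I transcription had 2 rises and 3 falls among 30 genes, and 4 rises and 5 falls without PBS 3. The shares over all genes tested were 7.32% higher, 8.28% lower and 15.6% in either direction. Ciita, the class II transactivator and a relative of Nlrc5, rose 2.53-fold, with 31.9, 37.7 and 36.9 CPM in Akkermansia libraries and 12.6, 13.7 and 15.7 CPM in PBS libraries (adjusted p = 4.02e-05). Irf8, an interferon regulatory factor, rose 1.49-fold (adjusted p = 0.000683). Both are also expressed by B cells, whose 15 markers rose in the same libraries (summed CPM above), and the part of B cells was not tested. Ifngr2, a chain of the interferon-gamma receptor, averaged 59.3 ± 1.92 CPM in Akkermansia libraries and 82.4 ± 11.1 CPM in PBS libraries (SD, n = 3 each), and fell by 0.48 ± 0.10 on the log2 scale (SE, adjusted p = 0.00533). Kat2b, a histone acetyltransferase, fell by 0.37 and Eed, a Polycomb subunit named after its value, fell by 0.35 (adjusted p = 0.00378 and 0.0065). Rfx5, Rfxank and Rfxap, named after their values were seen, encode the complex that holds Nlrc5 at the promoter and did not pass (adjusted p = 0.684, 0.328 and 0.485). Jak1, the most abundant gene of this list per length, averaged 996 ± 37.8 CPM in Akkermansia libraries and 1048 ± 67.2 CPM in PBS libraries (SD, n = 3 each, adjusted p = 0.546).

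Of 9 tested genes that act on class I at the surface, 1 rose (2 without PBS 3, and 0 with any 1 of the Akkermansia libraries or PBS 1 left out). Tmem127, a membrane protein of the complex that sends class I to degradation, had 137, 141 and 135 CPM in Akkermansia libraries, against 113, 112 and 119.8 CPM in PBS libraries, without overlap. It rose 1.20-fold (adjusted p = 0.0188) and was not called with any 1 of the Akkermansia libraries or PBS 1 left out (adjusted p up to 0.0969). Arf6, a trafficking GTPase, averaged 207 ± 5.73 CPM in Akkermansia libraries and 198 ± 23.6 CPM in PBS libraries (SD, n = 3 each, adjusted p = 0.671). Over all lists of the pathway together, 106 genes were tested, of which 10 rose and 4 fell, some standing in more than 1 list. Over all genes tested, 7.32% rose, 8.28% fell and 15.6% were called in either direction.

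**Figure D4:**
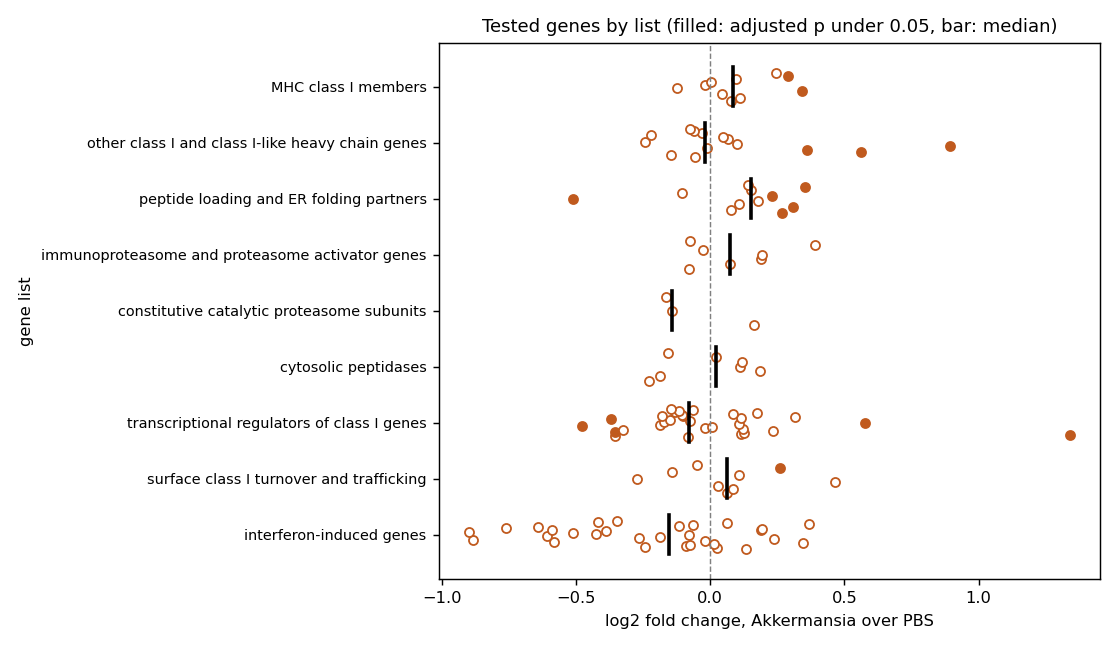
Log2 fold changes, Akkermansia over PBS (x axis), of tested genes in the 10-gene group (top row) and in each list of the pathway, with filled points for adjusted p below 0.05 and black bars for the median. The filled points include H2-Q7 and Tap2 in the top row, Ciita at 1.34 and Hspa5 at -0.51, and the interferon-induced list has none.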

How the data were processed

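Poly(A)-selected RNA from splenic CD4+ T cells was sequenced in 3 libraries per group. The authors deposited raw counts per gene and FPKM values. GRCm39 is the build named in the submitters' processing notes. Aligner, counter, strand setting and read length are not stated in the sources used here. Counts were tested with edgeR 4.0.16 (R 4.3.3): filterByExpr (min.count 10, min.total.count 15), TMM scaling, robust quasi-likelihood F test, two-sided, Benjamini-Hochberg adjustment over 15138 genes, threshold 0.05, no covariate. Intervals are 95% and come from the fitted SE. Levels are CPM, or FPKM where genes are compared. P-values weigh the difference between the groups against the spread between these libraries.

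The members and lists were chosen with earlier results of these data known. The rule named the 10 members, and of each list up to 4 called genes and the most abundant gene. Other genes were named after their values were seen. Alternatives used DESeq2 1.42.0, limma 3.58.1, other scalings and filters, FPKM with pseudocounts of 1 and 0.1, a block on replicate number, and fits without each library. Within groups, library pairs differed by 4.25 to 17.8 times the sampling variance per gene, so none was counted as a repeat. The fit was tested on simulated data. Of the symbols listed, 4 were matched under an older name (Nrd1, H13, March9 and March4). Transcript windows came from GENCODE M21 (GRCm38) and promoters from RefSeq.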

Additional observations from a re-analysis of the deposited data

How the results depend on the processing

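The count of members called higher was 2, and 2 or 3 with DESeq2, limma-voom, other scalings and other filters, but 1 (Tap2) by limma-trend on log2(FPKM + 1) and on log2(FPKM + 0.1), where H2-Q7 had adjusted p = 0.0536 and 0.0538. Leaving out single libraries gave 0 to 3 members called higher and 0 to 1 lower. For all genes tested these fits gave 519 to 1287 higher and 623 to 1413 lower, and for the pathway lists together 4 to 14 higher and 4 to 10 lower. On log2(FPKM + 0.1), 821 genes were lower, against 1253. The sign turned for Nlrc5 with at least 1 CPM in 3 libraries (-0.00069) and for H2-T23 on both FPKM scales (0.00092 and 0.0010). Leave-one-out ranges that crossed 0 were -0.012 to 0.096 for H2-K1, -0.33 to 0.082 for H2-T22, -0.13 to 0.093 for H2-T23, -0.063 to 0.22 for B2m, -0.017 to 0.23 for Tap1, -0.065 to 0.11 for Nlrc5, -0.074 to 0.14 for H2-Q6, -0.14 to 0.056 for Psme1, -0.032 to 0.11 for Arf6 and -0.088 to 0.40 for Bst2 (log2). The cause was not tested. With the replicate block, 3 members were called higher, Tapbp in addition (adjusted p = 0.041), 1 of 7 immunoproteasome and activator genes was called higher against 0, and 1205 genes were higher and 1333 lower over all genes tested. Deviations of same-numbered libraries correlated by 0.085, 0.077 and 0.030, each the highest for its number, which comes from the data and not the design. The deviations were taken from the group mean, so these correlations depend on each other. Values this small cannot decide whether the libraries were paired. Of 435 values of named genes in alternative fits, 376 kept direction and side of the threshold.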
